A study of Mus musculus with 5 samples.

Results

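Cholesterol and fatty acid synthesis genes were followed across 5 arrays of mouse cell lines. The set holds 32 genes, chosen by name for their place in these pathways, among 19303 genes tested. No rule on measured values picked them, but earlier results of these data were known when they were chosen. All 32 were found on the array and all passed the filter on dim probes, through 65 probes, of which 63 could be tested. The probe of a gene with the highest mean signal stands for it below.

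Hepatic cells of 2 kinds and 1 neural line were measured, with 1 array of total RNA for each culture. Hepatic progenitor cells (HPC) were the lines HB1, from C57BL6J mice, and HNG2, from STOCK Tg(Nanog-GFP, Puro)1 Yam mice, a strain with a Nanog reporter transgene. Both lines were taken from fetal liver at embryonic stage E13.5. The neural progenitor cells (NPC) were the line NSBAg2, derived from the embryonic stem cell line BAg73C2, which carries a beta-geo knock-in in Afp, a gene of fetal liver. Induced hepatic progenitor cells (iHPC) were NSBAg2 cells infected with pMXs retroviruses, without drug-selection markers, for 9 transcription factors (iHPC 9F) or 10 (iHPC 10F). G418 was added 3 weeks after infection and the iHPC were harvested after 1 week in it, while no G418 is recorded for the other cultures. The factors are not named in the sources used here. Because beta-geo sits in Afp, iHPC had been kept by Afp transcription, and the knock-in is shared by iHPC and NPC and not recorded for HPC.

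The groups limit what can be compared. HB1 and HNG2 differ in strain, and the iHPC arrays differ in the factors given, so neither pair is a repeat of 1 condition. NPC had 1 array. Each p-value below therefore measures the spread between these cultures. HB1 was scanned on the first of 3 days, HNG2 on the second, and the iHPC and NPC arrays on the third, so line and scan day cannot be told apart. The upper quartile of signal ran from 590.3 to 1074 units, between 58.9% and 65.6% of spots were well above background, and 0 were saturated. Of 9 hepatic markers 9 were well above background in HB1 and 8 in HNG2 and in each iHPC culture, against 2 in NPC, and Afp and Alb were not well above background in NPC. Of 6 neural progenitor markers NPC had 6, HNG2 and both iHPC cultures 5 each and HB1 4, and Sox2 was not well above background in either HPC line.

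Mammalian cells build cholesterol from acetyl-CoA through mevalonate, farnesyl diphosphate, squalene and lanosterol, and build fatty acids from the same acetyl-CoA. The transcription factors SREBP1 and SREBP2 switch on both sets of enzymes. When membrane sterol is plentiful, INSIG proteins hold SCAP and its SREBP cargo in the endoplasmic reticulum, and when it is scarce SCAP carries SREBP to the Golgi, where proteases release the active factor. The liver is a main site of both syntheses, and SREBP targets commonly move together.

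To show the DNA ahead of genes that differed widely between the HPC lines, the 250 bases before the RefSeq start of 5 of them are printed 5′ to 3′ (RefSeq, GRCm38.p6). They are the 3 members with a sterol element core and the 2 with the widest HB1 to HNG2 difference. In the first 3, capitals mark the core CACNCCAC, searched on both strands, of the element that SREBP binds.
Hmgcs1 (chr13:119690101-119690350, plus strand): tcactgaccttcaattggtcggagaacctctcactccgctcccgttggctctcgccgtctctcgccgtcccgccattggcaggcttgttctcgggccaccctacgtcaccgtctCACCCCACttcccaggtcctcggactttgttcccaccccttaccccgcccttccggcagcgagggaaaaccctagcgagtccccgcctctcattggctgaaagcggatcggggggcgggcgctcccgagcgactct
Insig1 (chr5:28071162-28071411, plus strand): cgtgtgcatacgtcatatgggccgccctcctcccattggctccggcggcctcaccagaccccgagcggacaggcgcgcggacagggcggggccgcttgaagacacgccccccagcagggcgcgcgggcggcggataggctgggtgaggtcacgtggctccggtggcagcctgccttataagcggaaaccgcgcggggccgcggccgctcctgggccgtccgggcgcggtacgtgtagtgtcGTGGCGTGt
Acat2 (chr17:12960726-12960975, minus strand): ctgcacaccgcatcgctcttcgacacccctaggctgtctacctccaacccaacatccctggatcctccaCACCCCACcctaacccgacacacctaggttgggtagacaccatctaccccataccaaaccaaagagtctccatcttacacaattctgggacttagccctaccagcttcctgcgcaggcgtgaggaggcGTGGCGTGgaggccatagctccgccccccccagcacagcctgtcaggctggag
In the other 2, capitals mark CCAAT, searched on both strands, the box bound by NF-Y, a partner of SREBP.
Tm7sf2 (chr19:6067851-6068100, minus strand): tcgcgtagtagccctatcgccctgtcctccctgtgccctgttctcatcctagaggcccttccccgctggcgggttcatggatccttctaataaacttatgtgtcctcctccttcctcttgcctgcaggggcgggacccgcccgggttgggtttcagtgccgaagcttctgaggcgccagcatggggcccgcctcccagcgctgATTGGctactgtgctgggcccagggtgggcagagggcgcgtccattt
Cyp51 (chr5:4104698-4104947, minus strand): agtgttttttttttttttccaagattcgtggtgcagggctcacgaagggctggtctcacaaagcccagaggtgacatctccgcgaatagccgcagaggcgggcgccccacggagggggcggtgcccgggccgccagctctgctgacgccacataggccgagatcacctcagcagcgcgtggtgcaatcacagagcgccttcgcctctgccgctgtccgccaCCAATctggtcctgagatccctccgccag

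A promoter window was matched for 25 of the 32 genes, through 34 start sites. CACNCCAC was found in 3 of the 34 windows (8.82%), against 5.29% of 32851 windows of the same length over all genes. CCAAT was found in 21 of the 34 (61.8%), against 33.8% of all windows, and 20 of the 25 genes had it in at least 1 window. The E-box CACGTG was found in 5 of the 34 (14.7%), upstream of Dhcr7, Hsd17b7, Insig1, Sc5d and Scap, against 6.02% of all windows. Sites of different motifs overlapped in 0 of the 34 windows, and these matches describe letters, not bound sites.

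Nearly all genes of the set read higher in HB1 than in HNG2, by sizes from close to level to past 2-fold. HB1 had the higher level of 30 of the 32 genes, and 17 of them were past 2-fold, while 0 were past 2-fold in the other direction. Among the 18242 genes above background in either line, 52.2% were higher in HB1, 16% were past 2-fold higher and 9.7% past 2-fold lower. The median HB1 minus HNG2 difference was 1.12 on the log2 scale over the members and 0.06 over all genes tested. With 1 array for each line this difference has no replicate check and was not tested. Here and below, a level is the log2 signal of a probe relative to the upper quartile of its array, and levels are compared only within a gene.

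**Figure D1:**
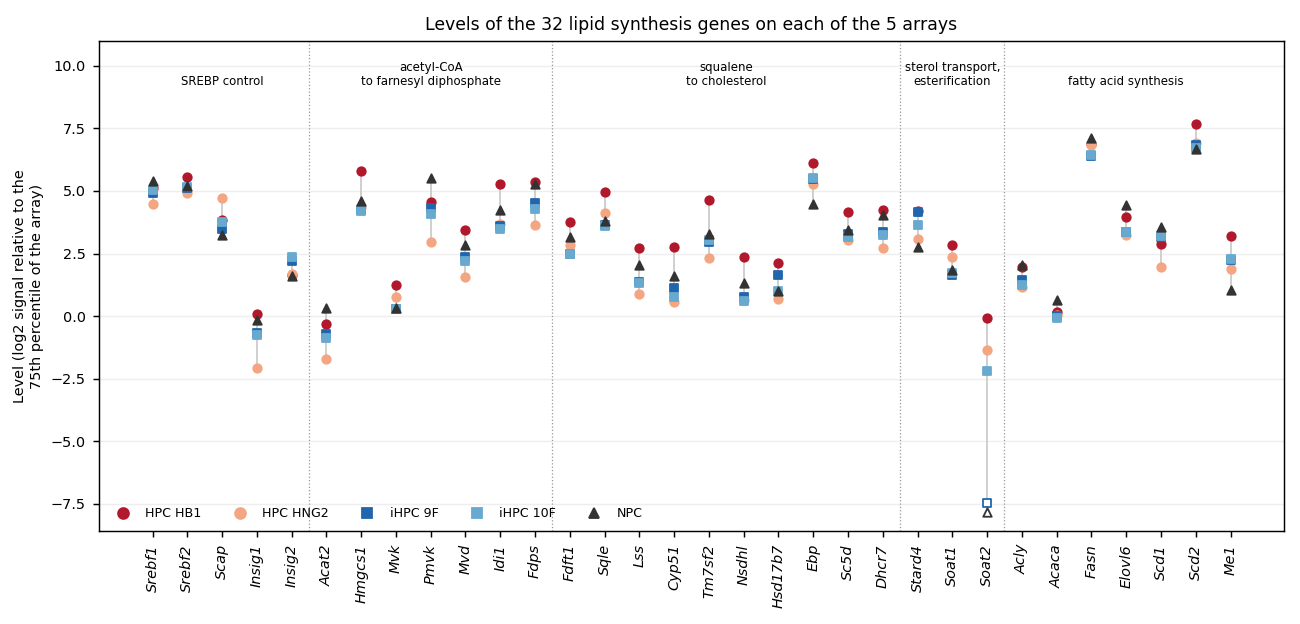
Levels of the 32 genes (vertical axis, log2 signal relative to the 75th percentile of the array) on each of the 5 arrays, ordered by role. Each point is 1 array and a grey line spans the gene's range; open symbols, in Soat2, were not well above background. By the probe shown, HB1 is the highest array for all 10 genes of the squalene to cholesterol group. The 2 iHPC points mostly lie on each other.

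The early enzymes carry acetyl-CoA to farnesyl diphosphate. Hmgcs1, which makes HMG-CoA, had a level of 5.78 in HB1, 4.37 in HNG2, 4.22 in iHPC 9F, 4.22 in iHPC 10F and 4.61 in NPC. By this probe HB1 stood alone, 2.65-fold above HNG2, and the other 4 arrays lay close together. A second probe, well above background on all 5 arrays, read -1.69 in HB1, -3.29 in HNG2 and -2.03 in NPC. On it iHPC 9F and 10F were at -2.62 and -2.58, above HNG2. Idi1, which isomerises isopentenyl diphosphate, followed the order of the first Hmgcs1 probe. It was at 5.26 in HB1, 3.69 in HNG2, 3.61 and 3.47 in iHPC 9F and 10F and 4.23 in NPC.

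Fdps, which makes farnesyl diphosphate, read 5.35 in HB1 and 3.65 in HNG2, with iHPC 9F at 4.52, iHPC 10F at 4.27 and NPC at 5.27. NPC was here as high as HB1, and HNG2 was the lowest array. Pmvk, which adds the second phosphate to mevalonate, had 4.55 in HB1, 2.94 in HNG2, 4.30 in iHPC 9F, 4.07 in iHPC 10F and 5.51 in NPC. NPC was the highest array for it and HNG2 again the lowest. Acat2, the cytosolic thiolase that joins acetyl-CoA units, showed the same ranks as Pmvk, with -0.30 in HB1, -1.72 in HNG2, -0.72 in iHPC 9F, -0.86 in iHPC 10F and 0.33 in NPC.

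Mvd, which makes isopentenyl diphosphate, read 3.45 in HB1, 1.57 in HNG2, 2.35 in iHPC 9F, 2.21 in iHPC 10F and 2.82 in NPC, a 3.68-fold gap between the HPC lines. Mvk, the mevalonate kinase, differed least in this group, at 1.25 in HB1, 0.75 in HNG2, 0.29 and 0.30 in iHPC 9F and 10F and 0.32 in NPC. Of these 7 genes 7 were higher in HB1 than in HNG2 and 6 were past 2-fold, with a median difference of 1.57. They did not share 1 order of arrays, since NPC was the top array for Pmvk and Acat2 and was next to the iHPC arrays for Mvk.

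The later enzymes turn farnesyl diphosphate into squalene and cholesterol. All 10 were higher in HB1 than in HNG2, 7 past 2-fold, with a median difference of 1.48. By the probe used, HB1 was the highest of the 5 arrays for all 10. Other probes of Dhcr7, Sc5d and Fdft1 placed NPC above HB1. They read 0.14 in HB1 and 0.34 in NPC for Dhcr7, and -5.14 and -5.00 for Fdft1. For Sc5d that probe read 0.29 in HB1, 1.22 in iHPC 9F, 1.29 in iHPC 10F and 1.89 in NPC. HB1 was the highest array for 22 of the 32 members, against 25.9% of all genes tested, and HNG2 was the lowest for 16, against 22%. Here and below, an order of 2 arrays is counted where at least 1 of them was well above background. The widest gap of all members was that of Tm7sf2, a sterol C14 reductase, at 4.63 in HB1, 2.31 in HNG2, 2.97 in iHPC 9F, 3.05 in iHPC 10F and 3.28 in NPC. HB1 was 4.98-fold above HNG2, and the other arrays lay between. Cyp51, the lanosterol demethylase, had 2.75 in HB1, 0.57 in HNG2, 1.11 in iHPC 9F, 0.75 in iHPC 10F and 1.60 in NPC. Its lines differed 4.51-fold, and iHPC 10F came near HNG2.

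Lss, which closes the sterol rings, read 2.71 in HB1, 0.87 in HNG2, 1.35 and 1.33 in iHPC 9F and 10F and 2.05 in NPC. Nsdhl, which takes part in removing the C4 methyl groups, had 2.35 in HB1, 0.64 in HNG2, 0.78 in iHPC 9F, 0.62 in iHPC 10F and 1.33 in NPC. In both, HB1 was highest and NPC next, but for Nsdhl iHPC and HNG2 were level. Dhcr7, the last reductase of the pathway, ran 4.24 in HB1, 2.71 in HNG2, 3.37 in iHPC 9F, 3.25 in iHPC 10F and 4.05 in NPC, with NPC close to HB1. Sc5d, the sterol C5 desaturase, ran 4.14, 3.03, 3.28, 3.14 and 3.44 in the same order of arrays.

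Fdft1, Sqle and Ebp had the narrowest gaps between the lines in this group. Fdft1, squalene synthase, had 3.75 in HB1, 2.85 in HNG2, 2.50 in iHPC 9F, 2.49 in iHPC 10F and 3.17 in NPC. Sqle, squalene epoxidase, had 4.94 in HB1, 4.10 in HNG2, 3.64 and 3.62 in iHPC 9F and 10F and 3.82 in NPC. For both, iHPC were below every other array. Hsd17b7, which works beside Nsdhl, read 2.12 in HB1, 0.70 in HNG2, 1.64 in iHPC 9F, 1.01 in iHPC 10F and 1.01 in NPC, and the iHPC arrays were further apart for it than for the others of this group. Ebp, the sterol isomerase, was the enzyme of this group with NPC clearly lowest, at 4.47 against 6.13 in HB1, 5.28 in HNG2, 5.47 in iHPC 9F and 5.51 in iHPC 10F.

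The genes that control SREBP were the least uniform. Insig1, itself an SREBP target, had 0.07 in HB1, -2.06 in HNG2, -0.68 in iHPC 9F, -0.74 in iHPC 10F and -0.14 in NPC. HNG2 was clearly lowest, 4.38-fold under HB1. Insig2, the other INSIG gene, had 1.63 in HB1, 1.68 in HNG2, 2.18 in iHPC 9F, 2.36 in iHPC 10F and 1.59 in NPC, so the iHPC arrays were above the other 3. A second Insig2 probe, of another RefSeq transcript, differed from this: it read 1.01 in HB1, 0.03 in HNG2, 0.55 in iHPC 9F, 0.39 in iHPC 10F and -0.60 in NPC.

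Scap, the SREBP escort, went the other way from the enzymes, at 3.85 in HB1, 4.72 in HNG2, 3.50 in iHPC 9F, 3.76 in iHPC 10F and 3.24 in NPC. Scap and Insig2 were the 2 members not higher in HB1, and the Insig2 difference of -0.05 changed sign with normexp background correction and with the mean of its probes. Srebf1, which encodes SREBP1, ranged from 4.50 in HNG2 to 5.38 in NPC, with 5.11 in HB1, 4.92 in iHPC 9F and 5.03 in iHPC 10F. Srebf2, which encodes SREBP2, ranged from 4.90 in HNG2 to 5.55 in HB1, with 5.11, 5.17 and 5.19 in iHPC 9F, iHPC 10F and NPC. The messages of the SREBP factors themselves thus differed by 0.61 and 0.65 between the HPC lines, less than most of the sterol enzymes.

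**Figure D2:**
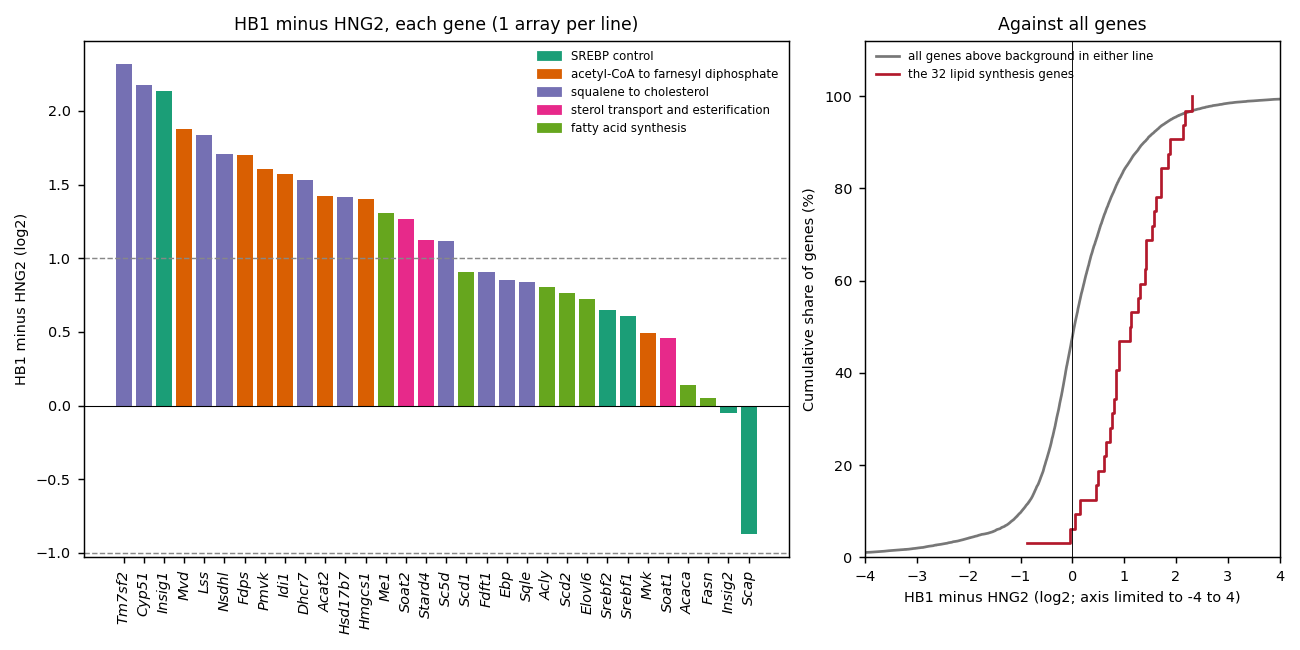
Left, HB1 minus HNG2 (log2, 1 array per line) for each of the 32 genes, coloured by role, with dashed lines at 2-fold. Right, the cumulative share of genes (%) at or under each difference, for the 32 genes and for all genes above background in either line; 30 of the 32 are above 0, and their curve lies to the right of that of all genes over most of the range.

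Genes of fatty acid synthesis differed less between the HPC lines, with a median of 0.76 and 1 of 7 past 2-fold. Fasn, fatty acid synthase, had 6.88 in HB1, 6.83 in HNG2, 6.39 in iHPC 9F, 6.44 in iHPC 10F and 7.11 in NPC. The lines were level for it, and the iHPC arrays were below them and NPC. Acaca, the acetyl-CoA carboxylase that starts the pathway, had 0.17, 0.03, -0.01, -0.06 and 0.63 in HB1, HNG2, iHPC 9F, iHPC 10F and NPC. Acly, which makes cytosolic acetyl-CoA from citrate, read 1.95 in HB1, 1.15 in HNG2, 1.44 in iHPC 9F, 1.26 in iHPC 10F and 2.04 in NPC. Elovl6, which lengthens palmitate, read 3.96 in HB1, 3.24 in HNG2, 3.37 and 3.38 in iHPC 9F and 10F and 4.44 in NPC. By the probes used, NPC was the highest array for all 4 of these genes. Another Fasn probe placed NPC under both lines, at 0.10 in HB1, -0.07 in HNG2 and -0.24 in NPC. So did another Acaca probe, at -4.02, -3.70 and -4.51 in the same arrays.

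The desaturases differed from each other. Scd1 had 2.87 in HB1, 1.97 in HNG2, 3.17 in iHPC 9F, 3.22 in iHPC 10F and 3.57 in NPC, so both iHPC arrays were above both HPC lines. Scd2, its paralogue, had 7.69 in HB1, 6.92 in HNG2, 6.82 in iHPC 9F, 6.71 in iHPC 10F and 6.69 in NPC, with HB1 alone at the top. Me1, malic enzyme, a source of NADPH, was the 1 gene of this group past 2-fold between the lines, at 3.21 in HB1, 1.90 in HNG2, 2.22 in iHPC 9F, 2.28 in iHPC 10F and 1.03 in NPC. NPC was lowest for Me1, the reverse of its place for Fasn, Acaca, Acly and Elovl6 by the probes used.

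Of the genes of sterol transport and esterification, Soat2 alone stood far from NPC in the HPC lines. For Stard4 and Soat1 the HPC minus NPC difference was 0.87 and 0.77 by the probes used. Soat2, which esterifies cholesterol in liver and intestine, had -0.07 in HB1, -1.34 in HNG2 and -2.18 in iHPC 10F, and was not well above background in iHPC 9F or NPC. It passed the filter through the HPC arrays alone and was the 1 member not measured on every array; 31 of the 32 were well above background on all 5, against 78% of all genes tested. Against the lowest signal that counted as well above background, Soat2 was at least 45.9-fold higher in HB1 than in NPC and at least 19.0-fold higher in HNG2. Soat1, the widely expressed esterifying enzyme, had 2.83 in HB1, 2.37 in HNG2, 1.62 in iHPC 9F, 1.71 in iHPC 10F and 1.83 in NPC, and so was lower in both iHPC arrays than in either HPC line. Its 4 probes disagreed: 1 of the other 3 was higher in HNG2 than in HB1. For iHPC minus HPC the other 3 gave 1.57, 1.68 and -0.20 against -0.93 for the probe used, and the mean of the probes gave 0.53, so the direction turns with the probe. Stard4, a carrier of cholesterol between membranes, read 4.21 in HB1, 3.08 in HNG2, 4.14 in iHPC 9F, 3.63 in iHPC 10F and 2.77 in NPC. By this probe iHPC 9F was level with HB1. By its other probes iHPC 9F was below HB1, at -0.70 against 0.48 and at -0.72 against 0.37.

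The direction between the HPC lines held across probes and scalings for most members. Of the 63 tested probes 59 were higher in HB1, 38 of them past 2-fold. The same share over all tested probes is not given here. Probes of 1 gene disagreed in sign for Acaca, Insig2 and Soat1. After quantile normalization 29 of the 32 genes were higher in HB1, against 9145 of all 19303 genes. Past 2-fold were 17, against 11.5% of all genes. Centring each array on its median shifted the median of all genes from 0.06 to -0.21. The members' median was then 0.84, with 28 higher in HB1, against 7717 of all 19303 genes. Past 2-fold were 14 higher and 1 lower, against 2288 and 2754 of all genes. Fasn and Acaca changed sign there, and Fasn also under quantile normalization. With only genes well above background on all arrays, the members' median was 1.12 and that of all genes -0.00, with 16 of 31 members and 11.7% of all genes past 2-fold higher in HB1. With no filter on dim probes all genes leaned to HB1 as well. Their median was 0.43, and 18611 of 28770 were higher in HB1, against 30 of the 32 members.

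Levels of other genes also differed between the lines, and their part in the result was not tested. Afp was 5.98 in HB1 and 2.98 in HNG2, and Alb, serum albumin, 4.60 and 1.84. The hepatic list did not move as one, since Dlk1, a hepatoblast surface gene, was at -3.65 in HB1 and -0.81 in HNG2, and the keratin gene Krt8 at 7.94 and 8.03. Of 3 adipocyte markers 2 were well above background in HB1 and 1 in HNG2, and Pparg, a regulator of lipid storage, was at 2.59 and 1.14, while Adipoq was not well above background on any array. The summed level of the adipocyte list ran from -2.57 in NPC to 2.60 in HB1, and that of the hepatic list from 3.59 in NPC to 9.39 in HB1, with HNG2 at 9.01. Summed mesenchymal marker signal was highest in NPC, at 7.21, against 3.64 to 4.22 elsewhere, and all 5 of those markers were well above background in NPC. In a bulk extract, fewer cells of a type and less RNA per cell cannot be told apart.

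The comparison of iHPC with HPC asked how near the induced cells came to fetal liver progenitors. The answer for these genes depended on the line. Both iHPC arrays were below HB1 for 30 of the 32 genes, against 44.3% of all genes tested, with a median iHPC minus HB1 difference of -0.93. Against HNG2, both were above it for 20 (44.8% of all genes) and below it for 11 (42%), with a median difference of 0.22. Both iHPC arrays lay between the 2 lines for 18 genes, among them 7 of the squalene to cholesterol enzymes, against 19.6% of all genes. This position relative to HNG2 moved with the scaling and the probe. With median centring 19 of the 32 were below HNG2 on the mean of the iHPC arrays, and 8 genes had changed sign. With the mean of a gene's probes the sign against HNG2 changed for Cyp51, Hmgcs1 and Soat1. Another probe of Cyp51, of Fdps and of Lss placed both iHPC arrays below HNG2. For Sc5d and Srebf2 another probe placed them above both lines. The sign against HB1 changed for no gene under quantile normalization, median centring or normexp background correction, and for Sc5d and Soat1 with the mean of a gene's probes.

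**Figure D3:**
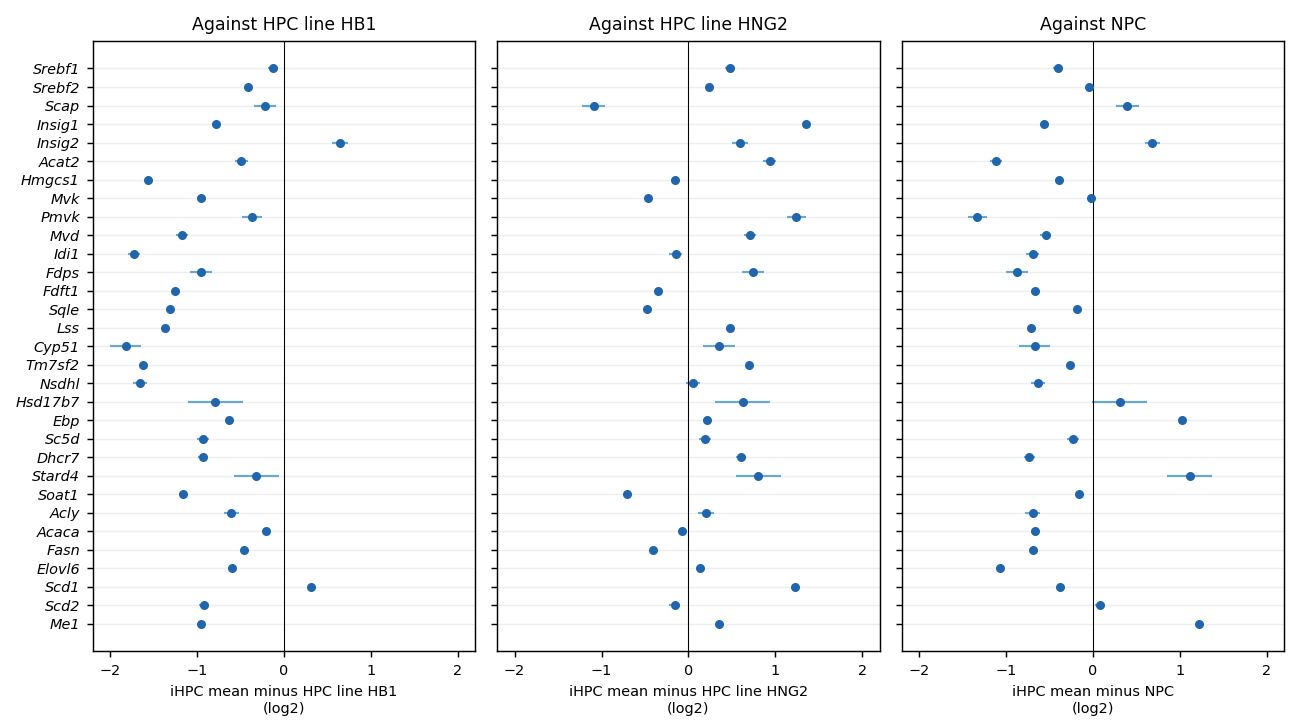
Mean of the 2 iHPC arrays minus HB1, HNG2 and NPC (log2, horizontal axes) for 31 of the 32 genes; Soat2, which has only a bound in iHPC 9F and NPC, is left out. Points are the mean, and bars reach to the 2 iHPC arrays. Nearly all points lie left of 0 against HB1, most lie left of 0 against NPC, and they fall on both sides of 0 against HNG2.

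In limma's fit of all 5 arrays, 0 of the 32 genes passed an adjusted p of 0.05 for iHPC minus HPC, against 5.42% of all genes, of which 3.54% were higher and 1.88% lower. At an unadjusted p under 0.05 there were 2 (27.6% of all genes), Insig2 and Soat1. Insig2 had a difference of 0.62 (SE 0.20, limma adjusted p = 0.160), where its second probe gave -0.05. Soat1 had a difference of -0.93 (SE 0.25, limma adjusted p = 0.129), which turns with the probe as given above. Both iHPC arrays were above both HPC lines for Insig2 and Scd1 (30.4% of all genes) and below both for 11 genes (29.2%). Those 11 were Acaca, Fasn, Fdft1, Hmgcs1, Idi1, Mvk, Scap, Scd2, Soat1, Soat2 and Sqle. For Acaca, Hmgcs1 and Soat1 this held by the probe used, and another probe of each placed both iHPC arrays above HNG2.

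With the spread taken from the iHPC pair alone, calls appeared and differed by line. With HNG2 left out, 17 genes were lower in iHPC than in HB1 (16.9% of all genes) and 0 higher (19.1%). They included Tm7sf2, with a difference of -1.62 (limma adjusted p = 0.0128), Hmgcs1, with -1.56 (0.0128), and Cyp51, with -1.82 (0.0207). With HB1 left out, 6 genes were higher in iHPC than in HNG2 (21.1%), which were Acat2, Insig1, Mvd, Pmvk, Scd1 and Tm7sf2, and Scap and Soat1 were lower (15.1%). Tm7sf2, Mvd and Insig1 were thus called lower than HB1 and higher than HNG2. These fits assume that the single HPC array varies like the iHPC pair, with 1 residual degree of freedom, and leaving out either iHPC array gave 0 calls.

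The comparison of iHPC with NPC set the induced cells against their parental neural line. Infection, the factors, the weeks after infection and G418 all lie between them and cannot be told apart here. Both iHPC arrays were below NPC for 24 of the 32 genes, against 42.7% of all genes, and above it for 6, against 43%. The median difference was -0.40 over the members and 0.03 over all genes. By role it was -0.69 for acetyl-CoA to farnesyl diphosphate, -0.45 for squalene to cholesterol, -0.66 for fatty acid synthesis and -0.05 for SREBP control. The 6 above NPC were Ebp, Insig2, Me1, Scap, Scd2 and Stard4. Soat2 is in neither count, because iHPC 9F and NPC were not well above background for it. Under quantile normalization 25 genes were lower on the mean of iHPC, and with median centring 23.

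In limma's fit of all 5 arrays, 0 of the 32 passed the adjusted threshold for iHPC minus NPC, against 5.64% of all genes, of which 2.79% were higher and 2.85% lower. At an unadjusted p under 0.05 there was 1, Fasn, against 24.4% of all genes, with a difference of -0.69 (SE 0.23, limma adjusted p = 0.189). Pmvk differed by -1.33 (SE 0.77, limma adjusted p = 0.391), and the wide spread of its HPC pair, an SD of 1.14, enters that error. Its iHPC pair had an SD of 0.16.

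With scan day as a block, the spread came from the iHPC pair alone and 10 genes were called. Lower in iHPC than in NPC were 8 (18.2% of all genes), namely Acaca, Acat2, Dhcr7, Elovl6, Fasn, Fdft1, Lss and Pmvk. Higher were 2 (16.8%), Me1 and Ebp. Me1 was higher by 1.22 (limma adjusted p = 0.0169) and Ebp by 1.02 (0.0223). Elovl6 had -1.07 (0.0204), Acat2 -1.12 (0.0228) and Fasn -0.69 (0.0450). Over all genes the shares called lower and higher lay near each other, while the members' calls were mostly lower. iHPC and NPC shared a scan day, so the block adjusted nothing between them and only took the HPC arrays out of the spread. These calls set 1 NPC array against the gap between the iHPC cultures, with 1 residual degree of freedom. No member was called with either iHPC array left out.

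Between HPC and NPC the members as a whole were level, with a median difference of 0.10, against -0.03 over all genes, and the lines lay on opposite sides. For 14 of the 32 genes NPC lay between HB1 and HNG2, against 19.4% of all genes. In limma's fit 0 passed the adjusted threshold, against 15.7% of all genes (6.68% higher and 8.98% lower), and 0 had an unadjusted p under 0.05, against 36.4%. With each probe fitted by itself, 1 of 63 was called, and the share called over all probes is not given here. It was a second Sc5d probe, lower in HPC by a difference of -1.85 (limma adjusted p = 0.0425), while the Sc5d probe used above differed by 0.14. On the mean of the HPC lines Soat2 stood at least 29.6-fold above NPC, and no test is drawn from it because it passed the filter through the HPC arrays alone.

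Taken apart, HB1 was called higher than NPC for 13 genes (25% of all genes) and lower for Pmvk and Scd1 (25.6%). HNG2 was called higher than NPC for Ebp, Me1 and Scap (22.6%) and lower for 12 (26.9%). Lss and Tm7sf2 were called higher than NPC in HB1 and lower than NPC in HNG2. Ebp and Me1 were called higher than NPC in each line. These calls too rest on the spread of the iHPC pair, and leaving out either iHPC array gave 0.

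The 2 iHPC cultures were close to each other in these genes. The median size of the iHPC 10F minus 9F difference was 0.11 over the members and 0.15 over all genes. Soat2 was the 1 member past 2-fold higher in iHPC 10F (1.16% of genes), at least 11.2-fold, and 0 were past 2-fold lower (1.98%). Hsd17b7 and Stard4 had the next wider gaps. With 1 array for each factor set this was not tested.

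Other genes of sterol and fatty acid handling were read from a list of 50, of which 47 were tested. In that list 37 genes were higher in HB1 than in HNG2, 14 past 2-fold and 3 past 2-fold lower, against the 52.2%, 16% and 9.7% of all genes given above, with a median of 0.62. Called in limma's fit were 1 higher and 1 lower for iHPC minus NPC (5.64% of all genes in either direction), 1 higher for iHPC minus HPC (5.42%), and 1 higher and 4 lower for HPC minus NPC (15.7%). Ch25h is 1 of those 4, and it was not well above background in either HPC line, so that call is not read as a result. Without iHPC 9F, or without iHPC 10F, 0 related genes were called in any of the 3 comparisons. Without HB1 there were 19, 18 and 23 calls for iHPC minus NPC, iHPC minus HPC and HPC minus NPC, against 35%, 36.2% and 49.4% of all genes. Without HNG2 there were 19, 22 and 23, against 35%, 36.1% and 50.6%. With no filter on dim probes the limma adjusted p was 0.0652 for Gpam and 0.0632 for Abcg1 in iHPC minus NPC, and 0.0567 for Vldlr and 0.0652 for Npc1 in HPC minus NPC. With only HPC and NPC fitted, all 5 calls of HPC minus NPC were lost, with adjusted p from 0.0679 for Mylip to 0.182 for Npc1.

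Mylip, a ubiquitin ligase that degrades lipoprotein receptors and is a target of the sterol sensor LXR, had -4.42 in HB1, -4.06 in HNG2, 1.31 in iHPC 9F, 1.68 in iHPC 10F and 3.01 in NPC. It was higher in iHPC than in HPC by 5.73 (SE 0.26, limma adjusted p = 0.0156), and HPC differed from NPC by -7.25 (SE 0.32, limma adjusted p = 0.00983). HB1 and HNG2 differed by -0.36 for it, and iHPC stood nearer to NPC than to HPC. Abcg1, a sterol exporter and LXR target, had -3.51 in HB1, -3.15 in HNG2, -1.85 in iHPC 9F, -1.95 in iHPC 10F and 0.84 in NPC. Its difference was -2.74 for iHPC minus NPC (SE 0.28, limma adjusted p = 0.0335) and -4.17 for HPC minus NPC (limma adjusted p = 0.0125).

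Gpam, which starts glycerolipid synthesis, had -3.60 in HB1, -3.92 in HNG2, -2.59 in iHPC 9F, -2.40 in iHPC 10F and -5.16 in NPC, and was higher in iHPC than in NPC by 2.67 (SE 0.28, limma adjusted p = 0.0340), and by 1.08 with normexp background correction. Vldlr, a lipoprotein receptor, had 3.09 in HB1, 1.24 in HNG2, 2.19 in iHPC 9F, 2.14 in iHPC 10F and -3.17 in NPC. It was higher in HPC than in NPC by 5.34 (SE 0.87, limma adjusted p = 0.0395), and the iHPC difference of 5.34 had a limma adjusted p of 0.0629. For Npc1, which moves cholesterol out of lysosomes, HB1 read -1.99, HNG2 -2.28, iHPC 9F -1.28, iHPC 10F -1.06 and NPC -0.20. It was lower in HPC than in NPC, with a difference of -1.93 (SE 0.28, limma adjusted p = 0.0318). Ch25h, which makes the oxysterol 25-hydroxycholesterol, had -3.95 in iHPC 9F, -2.91 in iHPC 10F and -0.97 in NPC. It was not well above background in either HPC line, so it passed the filter through the iHPC and NPC arrays alone. It was at least 40.5-fold higher in NPC than in HPC, and no test is drawn from it.

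**Figure D4:**
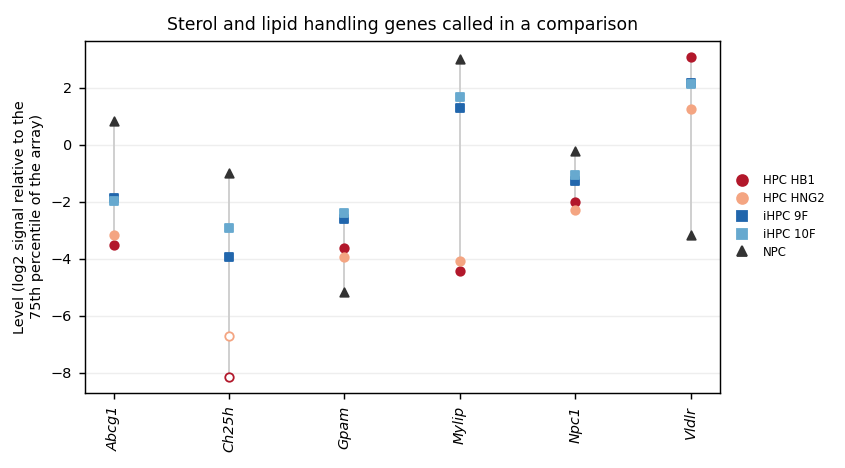
Levels (log2 signal relative to the 75th percentile of the array) of the 6 related genes called in at least 1 comparison, 1 point for each array. Open circles, in Ch25h, were not well above background. For Abcg1, Ch25h, Mylip and Npc1 the order is HPC, then iHPC, then NPC, and for Vldlr NPC is far below the other 4 arrays.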

How the data were processed

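RNA of 5 mouse cultures was measured on 1-colour Agilent arrays. Spot intensities were deposited, from Agilent Feature Extraction 10.7.3.1, which per the file headers subtracted background and removed spatial trends. No scaling between arrays is recorded. The deposited value table equalled the processed intensity on 100% of spots, so it is linear and uncentred, with column medians from 41.5 to 69.3.

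Here log2 of the processed intensity was taken and each array's 75th percentile subtracted. Control spots and outliers flagged by the scanner software were dropped, and replicate spots of a probe averaged. Genes were named through the RefSeq table of GRCm38.p6, by accession for 52 of the 65 member probes and by symbol for 13. Tested probes were well above background throughout at least 1 group, and the probe with the highest mean stood for its gene. A signal not well above background gives a bound, written "at least": the bright mean against the lowest signal well above background on the dim array, or the probe's own if higher. Groups came from the labelled cell type. limma 3.58.1 (R 4.3.3; lmFit, eBayes, two-sided, Benjamini-Hochberg over 19303 genes) fitted 3 groups with 2 residual degrees of freedom. An exact permutation test of 2 arrays against 2 cannot go below p = 0.333. Motifs were searched in RefSeq windows of 250 bases. The code was tested on simulated data. Figures were drawn with matplotlib 3.10.9.

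All 32 members are named. Related genes are named where called in a comparison. The members and lists were chosen with earlier results of these data known. Marker lists covered hepatic, neural progenitor, neuronal, glial, blood, endothelial, mesenchymal, pluripotent and adipocyte cells. The alternatives were quantile normalization, median centring, normexp (offset 50), other filters and probe summaries, robust eBayes, fewer groups, scan day as a block and each array left out. A slide block could not be fitted. The fit of every probe was added after the data were seen. Arrays of embryonic stem cells and of the neural line NSEB5-2C, which the design also names, were not analysed here.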

Additional observations from a re-analysis of the deposited data

How the results depend on the processing

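No paired analysis was possible because the labels give the arrays no shared replicate numbers. Calls among the members for iHPC minus NPC numbered 0, and 10 with only the groups compared and with scan day as a block. Leaving out 1 array gave 0 to 10 for iHPC minus NPC, 0 to 17 for iHPC minus HPC and 0 to 15 for HPC minus NPC. The upper ends came without an HPC array, which leaves the iHPC pair as the spread. The share of all genes called was then 35% for iHPC minus NPC, 36.1% or 36.2% for iHPC minus HPC and 49.4% or 50.6% for HPC minus NPC. Without HPC replicate 1 (HB1) iHPC minus HPC had 8 calls and without replicate 2 (HNG2) 17. Fitting every probe gave 1 for HPC minus NPC. Members past 2-fold between iHPC 10F and 9F numbered 1, with 0 where every array had to be well above background, which leaves out Soat2, and 2 with the mean of a gene's probes.

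Related genes called for iHPC minus NPC numbered 2: 5 with median centring, 0 with no filter, 4 with trend and robust eBayes, 19 with only the groups compared and with scan day as a block, and 0 to 19 without 1 array. For iHPC minus HPC there was 1: 2 with median centring, 7 with normexp, 3 with robust eBayes and 0 to 22 without 1 array. For HPC minus NPC there were 5: 9 with median centring, 8 with normexp, 3 with no filter, 8 with the mean of probes, 10 with robust eBayes, 0 with only the groups compared and 0 to 23 without 1 array. The share of all genes called is not given for most of these settings, so the counts show only that calls move with the processing. The cause was not tested.

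Directions reversed with an HPC line left out. Without replicate 1 and without replicate 2, iHPC minus HPC was 0.71 and -1.17 for Mvd, 0.70 and -1.62 for Tm7sf2 and 1.35 and -0.78 for Insig1. In the same order HPC minus NPC was -1.18 and 0.65 for Lss and -0.97 and 1.35 for Tm7sf2. For single genes, other alternatives gave the same call in 486 cases, a call gained in 20 and a call lost in 9. With the mean of a gene's probes the sign of an uncalled difference changed for 1 member in iHPC minus NPC, 4 in iHPC minus HPC and 7 in HPC minus NPC. Counts past 2-fold between HB1 and HNG2 stayed within 1.5 times under all alternatives. The number of arrays limits precision.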

Other observations

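Several probes gave other values than the one that stood for their gene. Of the 4 tested Soat1 probes 1 is placed on chromosome 7 by the array design, while RefSeq places Soat1 on chromosome 1. The 2 Idi1 probes, placed on chromosome 2 by the design and on 13 by RefSeq, gave HB1 minus HNG2 differences of 1.57 and 1.43. The 3 Hmgcs1 probes gave 1.40, 1.60 and 2.74. Tested probes of 1 gene disagreed in sign for 3 members in iHPC minus NPC, 8 in iHPC minus HPC and 10 in HPC minus NPC.

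Abca1, a sterol exporter and LXR target that was not called, was chosen after its values were seen. It had -5.60 in HB1, -1.77 in HNG2, -1.91 in iHPC 9F, -1.06 in iHPC 10F and 0.23 in NPC, so the HPC lines differed in the opposite direction from the synthesis genes. Nr1h3, which encodes the sterol sensor LXR alpha, was also chosen after its values were seen, at 0.67 in HB1, -0.70 in HNG2, -0.62 in iHPC 9F, -0.45 in iHPC 10F and -1.72 in NPC.

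Other marker lists were read on the same arrays. The summed level of the glial list ran from -0.80 in NPC to 2.82 in HB1, with Mbp at -1.14 in NPC and 2.81 in HB1, while Mog, Gfap and Olig2 were not well above background on any array, nor was the neuronal gene Dcx. Of 4 endothelial markers 2 were well above background in HB1, 0 in HNG2 and 1 in each other culture. Of 4 blood markers with a probe 1 to 3 were, and of 3 pluripotency markers 0 or 1.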
